A study of Homo sapiens with 6 samples.

Results

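ATP-dependent chromatin remodellers are enzymes that spend ATP to slide, evict or exchange nucleosomes, and they work as the motors of large complexes. Families are told apart by the motor: SWI/SNF, ISWI, CHD and INO80. Within SWI/SNF several positions are filled by alternative, related proteins, and neurons exchange some of these subunits for neuron-specific forms as they leave the cell cycle. The CHD3, CHD4 and CHD5 proteins are the motors of NuRD, which also holds the histone deacetylases HDAC1 and HDAC2. The 46 genes described here were chosen by symbol and membership of these complexes, not by a threshold on a measured value. The choice was made with earlier results of these data known. Each of the 46 genes matched 1 of the 22718 rows of the deposited tables. They comprise 26 genes of SWI/SNF, 5 of ISWI, 9 of the CHD family, 5 of the INO80 group and HELLS, a helicase-like remodeller linked to DNA methylation.

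Transcript levels were measured by RNA sequencing of 6 libraries whose label names HT1197, an established human bladder carcinoma line. Cells were kept for 48 hours in vehicle, 1% DMSO (3 libraries, A to C, whose condition label reads untreated), or in panobinostat, a histone deacetylase inhibitor, at 2 times the half-maximal inhibitory concentration (3 libraries, A to C). All libraries came from 1 line and carry no named genetic change. Dishes were seeded in triplicate, but no label ties a library to a dish, so the spread behind each p-value may be that of technical repeats.

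The line's label was checked against marker genes, with levels in FPKM (counts scaled by gene length and by the column's total). Of 13 luminal urothelial markers 7 had a row, and GATA3 alone stood at 10 FPKM or more with vehicle. UPK1B and FOXA1 had 0 counts in every vehicle library, while PPARG stood at 0.825 FPKM and KRT19 at 0.278 FPKM. Of 6 basal urothelial markers 3 had a row, of 3 epithelial markers 2, and 0 of these stood at 10 FPKM or more. TP63, a basal marker, had 0 counts in every vehicle library, EGFR stood at 0.170 FPKM and the epithelial marker EPCAM at 1.07 FPKM. Of 11 markers of adrenergic neuroblasts, a list written with earlier results known, 10 stood at 10 FPKM or more. MYCN stood at 832 ± 67.3 FPKM (mean ± SD, n = 3) and PHOX2A at 139 ± 16.8 FPKM. The exception, TH, stood at 0.0875 FPKM. The summed level of those 11 was 1806 to 2029 FPKM with vehicle and 1480 to 1576 FPKM with panobinostat, and its part in the results below was not tested. The data thus go against the label, and the cells are called the libraries labelled HT1197. Library totals ran from 13417898 to 18186087 counts, and 3 counts corresponded to 0.165 to 0.224 CPM (counts scaled to a common library total). Within each arm library A stood apart from B and C: the chi-square per gene was 7.97 to 10.6 for pairs with A and 2.64 to 3.19 for B against C. The counts for the 46 genes, the SWI/SNF genes, their partners and the whole table are therefore also given without both A libraries.

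Most remodeller genes were lower after panobinostat, while SMARCA2, SMARCD3 and CHD5, low in vehicle, were 5.58-fold to 35.0-fold higher. SRCAP, as low in vehicle as CHD5 (means of 0.155 and 0.151 FPKM), did not pass. Of the 46 genes, 34 fell, 6 rose and 6 did not pass the test (edgeR quasi-likelihood test, Benjamini-Hochberg adjusted p of 0.05 or less over all 16084 genes tested). The genes that rose were SMARCA2, SMARCD3, CHD5, ACTL6B, RUVBL1 and SS18. Over all genes tested, 31.5% fell and 33.7% rose, against 73.9% and 13% of the remodeller genes. Abundance moved with the calls: among the 9930 genes that averaged at least 10 CPM, 42.3% fell and 27% rose, and of the 42 remodeller genes at that level 33 fell and 4 rose. All 46 genes exceeded the abundance filter in each of the 3 vehicle libraries and in each of the 3 panobinostat libraries. The median log2 fold change of the 46 genes was -0.51, against 0.01 for all genes tested. Without both A libraries 36 fell and 6 rose, and of all genes tested 5481 fell and 5874 rose, against 5066 and 5416 with all libraries. Scaling by library size alone or by the upper quartile moved the median of all genes up by 0.11 and 0.14 on the log2 scale. Under either of those scalings 30 of the 46 fell and 6 rose, while genes that rose made up 61.0% and 63.2% of all genes called, against 51.7% with the scaling used here.

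**Figure D1:**
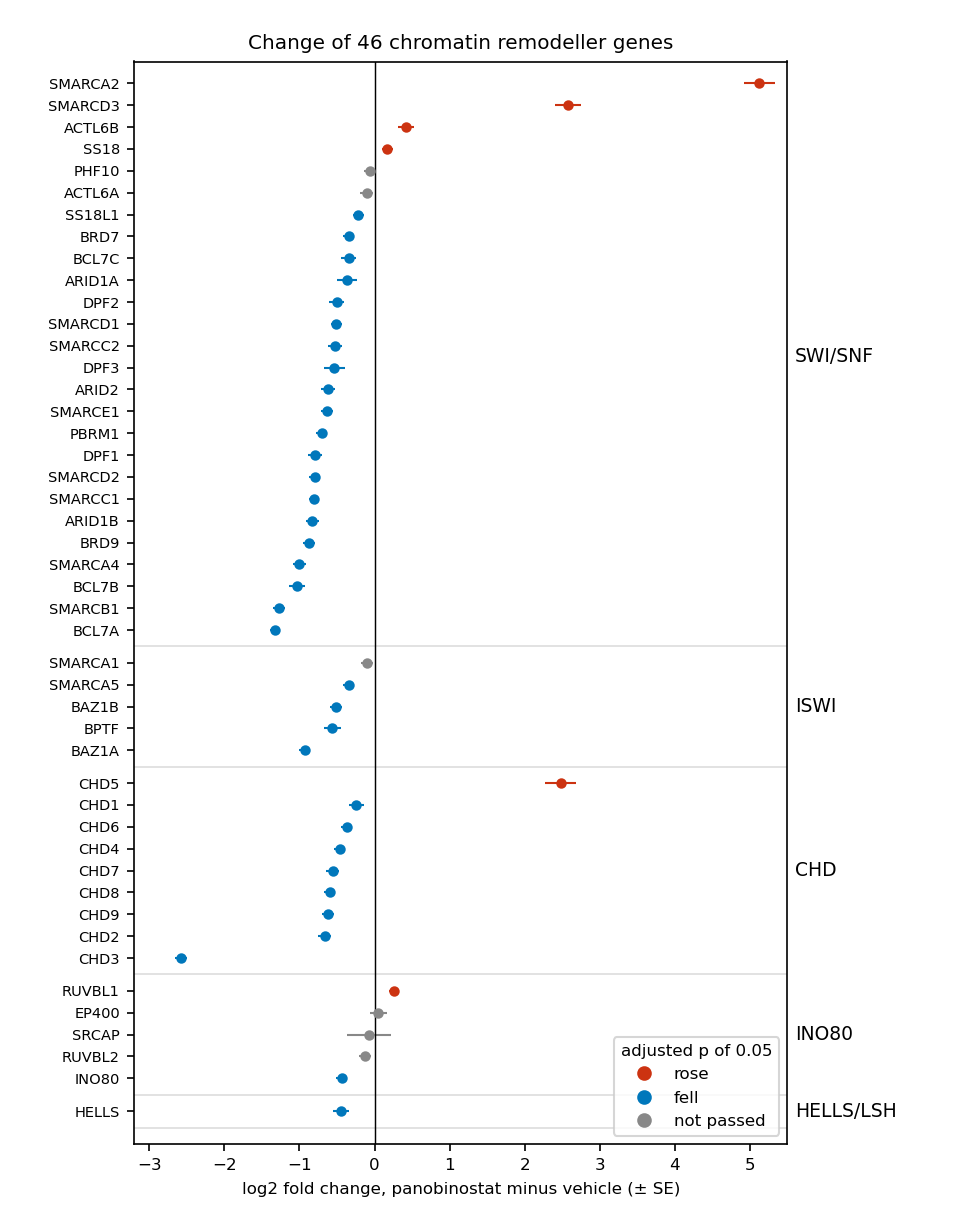
Log2 fold change (panobinostat minus vehicle, x axis, with SE bars from edgeR) of the 46 remodeller genes, grouped by complex and coloured by call at an adjusted p of 0.05. SMARCA2, SMARCD3 and CHD5 stand far to the right, CHD3 far to the left, and 34 of 46 genes are marked as fallen.

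The size of the falls was mostly moderate. Of the 34 genes that fell, 5 did so at least 2-fold, namely CHD3, BCL7A, SMARCB1, BCL7B and SMARCA4. Another 19 had a log2 change between -1 and -0.5, and 10 had one between -0.5 and 0. The latter bands held 41.3% and 21.7% of the 46 genes, against 13.4% and 12.9% of all genes tested. Over all genes tested 5.27% fell at least 2-fold and 16.8% rose at least 2-fold; among those at 10 CPM or more the shares were 4.83% and 6.19%. Of the 6 genes that rose, SMARCA2, SMARCD3 and CHD5 rose at least 2-fold. The arms did not overlap in CPM for 37 of the 46 genes, 31 lower and 6 higher with panobinostat, where the shares over all genes tested were 33.4% lower and 35.5% higher (44% and 28.5% at 10 CPM or more).

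**Figure D2:**
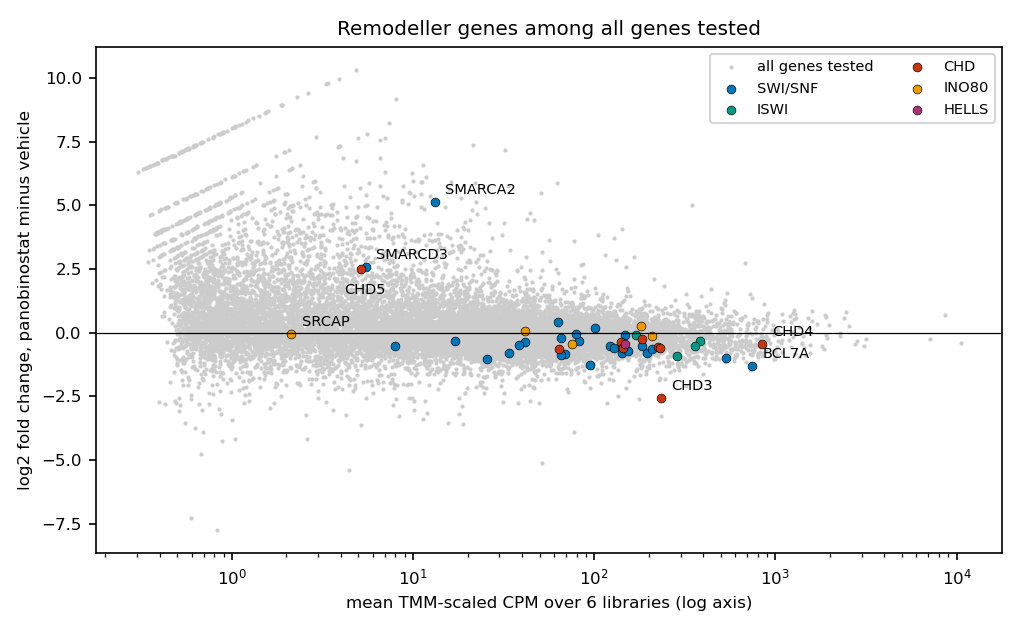
Mean TMM-scaled CPM over the 6 libraries (x axis, log scale) against log2 fold change (y axis) for all 16084 genes tested in grey, with the 46 remodeller genes coloured by complex. Most remodeller genes lie just below 0 at middle to high abundance, SMARCA2, SMARCD3 and CHD5 lie well above 0, and CHD3 lies at -2.58.

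Of the 26 SWI/SNF genes 20 fell (76.9%), 4 rose (15.4%) and 2 did not pass. Over all genes tested 31.5% fell and 33.7% rose, and at 10 CPM or more 42.3% and 27%. Without both A libraries 22 of the 26 fell and 4 rose. The motor of SWI/SNF is either SMARCA4 (BRG1) or SMARCA2 (BRM), and a complex holds 1 of them. SMARCA2 (ENSG00000080503, chromosome 9, 1980290 to 2193624 on GRCh38) stood at 0.0716, 0.0801 and 0.0622 FPKM in vehicle libraries A, B and C and at 3.37, 2.49 and 2.35 FPKM in panobinostat libraries A, B and C. The vehicle values rest on 10, 14 and 11 counts, the panobinostat values on 442, 394 and 418. Every panobinostat library lay far above every vehicle library. On the log2 scale the rise of SMARCA2 was 5.13 ± 0.21 (SE), or 35.0-fold (edgeR adjusted p = 4.80e-11), and ranked 204 from the top among the 16084 genes tested. SMARCA4 (ENSG00000127616, chromosome 19, 10960825 to 11079426) stood at 68.0, 55.9 and 61.8 FPKM with vehicle and 36.9, 31.1 and 32.0 FPKM with panobinostat. It fell by 1.00 ± 0.09 on the log2 scale (edgeR adjusted p = 1.34e-07), and its arms did not overlap. SMARCA4 remained the more abundant of the motors in every library. SMARCA2 made up 0.116 ± 0.0234% of the summed FPKM of both genes with vehicle and 7.55 ± 0.772% with panobinostat (mean ± SD, n = 3), while the sum itself went from 61.9 ± 6.07 to 36.1 ± 3.64 FPKM. In bulk RNA, fewer cells with a transcript and less transcript per cell cannot be told apart.

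The promoters of the SWI/SNF motors, of the SWI/SNF subunit gene SMARCD3 and of the NuRD motor gene CHD3 are shown because these genes were among those with the largest changes in opposite directions. Each run is the 250 bases before the RefSeq start lying farthest upstream in the table (GRCh38.p14), 5′ to 3′ on the gene's strand, with the GC box (GGGCGG or its reverse complement CCGCCC, a motif bound by SP and KLF factors) in capitals.
SMARCA2 (chr9:2015097-2015346, plus strand): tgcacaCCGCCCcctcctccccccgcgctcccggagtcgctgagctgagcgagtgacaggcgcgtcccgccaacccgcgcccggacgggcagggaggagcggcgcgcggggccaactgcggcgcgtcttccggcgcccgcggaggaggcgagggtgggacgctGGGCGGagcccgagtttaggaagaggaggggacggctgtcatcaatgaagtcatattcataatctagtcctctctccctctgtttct
SMARCA4 (chr19:10960780-10961029, plus strand): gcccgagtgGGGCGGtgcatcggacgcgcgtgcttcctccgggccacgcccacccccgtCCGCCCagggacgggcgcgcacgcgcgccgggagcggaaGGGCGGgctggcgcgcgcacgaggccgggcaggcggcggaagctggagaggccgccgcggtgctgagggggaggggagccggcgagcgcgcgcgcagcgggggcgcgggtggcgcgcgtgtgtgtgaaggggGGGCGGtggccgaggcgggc
SMARCD3 (chr7:151277150-151277399, minus strand): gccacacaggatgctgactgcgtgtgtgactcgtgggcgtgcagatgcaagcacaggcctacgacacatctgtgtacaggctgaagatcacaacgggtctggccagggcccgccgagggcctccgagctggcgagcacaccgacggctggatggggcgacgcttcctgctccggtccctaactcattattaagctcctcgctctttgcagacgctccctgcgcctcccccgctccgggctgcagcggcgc
CHD3 (chr17:7888539-7888788, plus strand): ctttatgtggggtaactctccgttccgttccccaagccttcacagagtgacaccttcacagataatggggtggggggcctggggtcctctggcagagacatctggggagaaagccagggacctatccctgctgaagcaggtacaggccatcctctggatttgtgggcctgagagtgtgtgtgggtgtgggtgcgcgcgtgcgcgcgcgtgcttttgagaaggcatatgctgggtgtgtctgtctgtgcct

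These windows differed in CpG content. The SMARCA4 window held 44 CpG dinucleotides and 4 GC boxes, the SMARCA2 window 29 and 2, the SMARCD3 window 21 and 0, and the CHD3 window 9 and 0. CHD3 had 1 listed start, SMARCA4 2, SMARCD3 3 and SMARCA2 4, and the contrast depends on the start shown. The other SMARCA4 window held 4 CpG dinucleotides and 0 GC boxes. The other SMARCD3 windows held 34 and 2, or 1 and 0, and the other SMARCA2 windows 0 to 8 and 0. The median over 35116 RefSeq promoter windows of this length was 11 CpG dinucleotides, and 42.6% of them held a GC box on either strand, overlapping matches counted. Of the 46 genes 37 had an entry in the promoter table, with 56 windows in all; their median was 22 CpG dinucleotides, and 35 windows (62.5%) held a GC box. The E-box CACGTG, the core site of MYC-family factors, was present in 3 of the 56 windows (5.36%) and in 6.34% of all windows. A match is a description of letters only. The tables count reads per gene, so they do not tell which start was used. GENCODE places the first base of CHD3 (7884806), of SMARCA2 (1980290) and, on the minus strand, of SMARCD3 (151277896) upstream of the windows printed.

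The core and scaffold subunit genes SMARCB1, SMARCC1, SMARCC2 and SMARCE1 all fell. SMARCB1, the core subunit lost in rhabdoid tumours, stood at 54.5, 48.9 and 52.4 FPKM with vehicle and 23.9, 21.1 and 24.5 FPKM with panobinostat, a fall of 1.28 ± 0.08 on the log2 scale (edgeR adjusted p = 4.88e-09). The arms were far apart. SMARCC1, a scaffold subunit, went from 31.8, 31.2 and 30.8 to 19.4, 19.3 and 19.3 FPKM and fell by 0.81 ± 0.07. Its relative SMARCC2 went from 27.1, 23.2 and 23.1 to 21.6, 17.2 and 16.4 FPKM and fell by 0.53 ± 0.10, with library A highest in both arms. SMARCE1, an HMG-box subunit, fell by 0.64 ± 0.08 on the log2 scale. In GENCODE release 29, 19.8% of the exon bases of SMARCE1 are shared on the same strand with the gene model AC073508.2, which has 0 rows in the tables analysed here, so its level is less certain.

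SMARCD1, SMARCD2 and SMARCD3 (the BAF60 proteins, which link SWI/SNF to transcription factors) are alternatives to each other, and SMARCD3 is the form known from heart and skeletal muscle. SMARCD3 stood at 0.256, 0.323 and 0.287 FPKM with vehicle and at 1.81, 1.97 and 1.87 FPKM with panobinostat, on 19 to 30 and 126 to 177 counts. The arms were separate, and SMARCD3 rose by 2.58 ± 0.17 on the log2 scale, 5.98-fold (edgeR adjusted p = 9.05e-09). SMARCD1 went from 29.4, 25.6 and 25.4 to 21.0, 20.4 and 19.6 FPKM and fell by 0.51 ± 0.07, and SMARCD2 fell by 0.80 ± 0.07. Even so SMARCD3 made up 3.69 ± 0.0771% of the summed FPKM of the 3 genes with panobinostat, up from 0.393 ± 0.0526% with vehicle, while SMARCD2 held the largest share in all 6 libraries.

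The BCL7 genes encode small accessory subunits. BCL7A was the most abundant of the 46 genes with vehicle, at 159, 148 and 160 FPKM, and stood at 65.8, 67.0 and 68.3 FPKM with panobinostat. The panobinostat libraries were all below the vehicle libraries, and BCL7A fell by 1.33 ± 0.07 on the log2 scale, 2.51-fold (edgeR adjusted p = 8.81e-10). BCL7B, at 10.6, 8.54 and 8.72 FPKM with vehicle and 5.43, 4.56 and 4.72 FPKM with panobinostat, fell by 1.03 ± 0.11. BCL7C fell by 0.35 ± 0.10, but its call was lost when libraries were scaled by total (edgeR adjusted p = 0.0617) or by the upper quartile (0.0933), and in limma on FPKM (0.0580 to 0.0912).

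Of the subunits that tell the SWI/SNF subtypes apart, ARID1B, PBRM1, ARID2, BRD7, BRD9 and ARID1A passed as falls, the last not under every setting, and PHF10 did not pass. ARID1B and ARID1A are the alternative DNA-binding subunits of canonical BAF. ARID1B stood at 5.32, 4.65 and 5.08 FPKM with vehicle and 3.51, 2.90 and 2.77 FPKM with panobinostat, and fell by 0.83 ± 0.09 on the log2 scale. ARID1A stood at 5.35, 3.95 and 5.18 against 4.98, 3.77 and 3.45 FPKM, so its arms overlapped. Its change of -0.36 ± 0.13 passed (edgeR adjusted p = 0.0244), but the adjusted p was 0.0704 or 0.0876 when vehicle A or vehicle C was left out, and 0.0899 or 0.114 when panobinostat B or panobinostat C was. It was also lost with library size alone, upper quartile scaling and limma on FPKM (adjusted p = 0.119 to 0.296).

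Of the PBAF subunits, PBRM1 (polybromo) went from 18.1, 19.6 and 18.9 to 13.8, 11.8 and 12.05 FPKM and fell by 0.70 ± 0.08, ARID2 by 0.62 ± 0.09 and BRD7 by 0.35 ± 0.07 on the log2 scale. PHF10, the fourth PBAF subunit listed, did not pass (-0.06 ± 0.08), with 12.6, 15.1 and 14.5 FPKM with vehicle and 14.8, 14.9 and 14.02 FPKM with panobinostat; without both A libraries it did pass (-0.15, edgeR adjusted p = 0.0393). BRD9, which marks non-canonical BAF, went from 8.53, 8.42 and 8.71 to 4.94, 4.85 and 5.34 FPKM and fell by 0.87 ± 0.08.

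Neuronal and progenitor forms of SWI/SNF subunits were expressed side by side in these libraries. ACTL6B, the neuronal actin-like subunit, stood at 26.5, 18.9 and 19.6 FPKM with vehicle and 32.0, 31.7 and 30.0 FPKM with panobinostat. It rose by 0.42 ± 0.10 on the log2 scale (edgeR adjusted p = 0.00254), with vehicle library A nearest to the panobinostat libraries. ACTL6A, its counterpart in dividing cells, did not pass (-0.10 ± 0.09): the vehicle values of 35.4, 41.2 and 42.8 FPKM overlapped the panobinostat values of 37.6, 40.4 and 42.2 FPKM. ACTL6A did pass, as a fall, without vehicle library A (-0.20, edgeR adjusted p = 0.0324) or without both A libraries (-0.14, adjusted p = 0.0325). ACTL6A held the larger share of the actin-like pair in all 6 libraries, 54.0% to 68.6%.

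The other neuronal forms did not move with ACTL6B. DPF1, a neuronal subunit with a double PHD finger, went from 8.97, 7.95 and 8.77 to 5.25, 5.79 and 4.96 FPKM and fell by 0.79 ± 0.09 on the log2 scale (edgeR adjusted p = 1.99e-06). DPF3, the least abundant gene of this group, went from 1.47, 1.22 and 1.25 to 1.14, 0.932 and 0.878 FPKM and fell by 0.54 ± 0.14. DPF2, the widely expressed form, fell by 0.51 ± 0.10. The fall of DPF3 did not pass with limma on FPKM (adjusted p = 0.0794 to 0.0868). SS18L1 (CREST), the neuronal relative of SS18, changed by -0.22 ± 0.07 from 13.7, 12.98 and 13.4 to 13.3, 12.2 and 11.9 FPKM. Its arms overlapped in FPKM but not in TMM-scaled CPM, where every panobinostat library was lower. SS18 changed by 0.17 ± 0.07 from 14.8, 15.2 and 14.4 to 18.8, 18.2 and 17.0 FPKM. Both calls depended on single libraries. SS18 (edgeR adjusted p = 0.0419) did not pass with DESeq2 (0.0523), without the abundance filter (0.137) or without any 1 of vehicle libraries A, B and C or panobinostat libraries A and B (0.0562 to 0.162). SS18L1 (edgeR adjusted p = 0.0191) lost its call when vehicle C (0.0576), panobinostat B (0.0822) or panobinostat C (0.0890) was left out. It also lost it with scaling by total or upper quartile and with limma on FPKM (0.204 to 0.380).

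**Figure D3:**
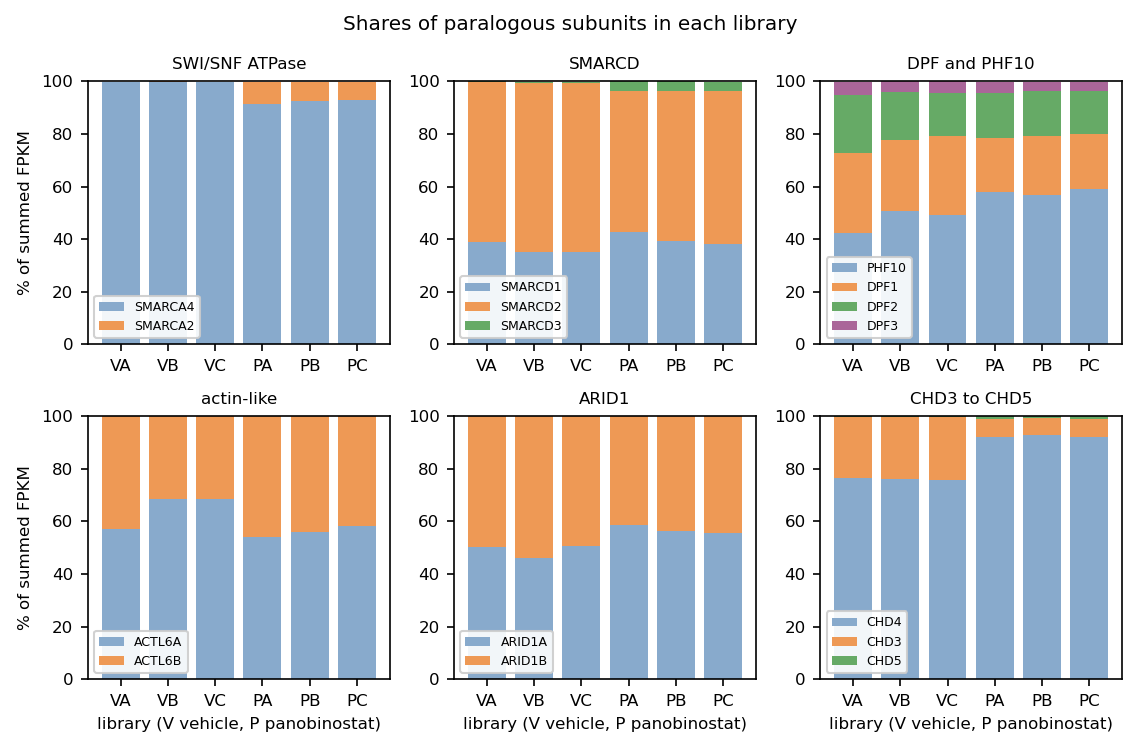
Share of each subunit in the summed FPKM of its family (y axis, percent) for 6 families in each of the 6 libraries (x axis), as stacked bars that add to 100%. SMARCA2 appears in the panobinostat libraries at 6.86% to 8.38%, CHD3 shrinks from 23.4% to 24.3% with vehicle to 6.28% to 7.02% with panobinostat, and vehicle library A differs from B and C in the actin-like pair.

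ISWI remodellers space nucleosomes evenly, and their motors are SMARCA5 (SNF2H) and SMARCA1 (SNF2L), the latter known for its expression in brain. Of the 5 ISWI genes 4 fell and 0 rose, where 31.5% of all genes tested fell and 33.7% rose (42.3% and 27% at 10 CPM or more). SMARCA5 stood at 44.9, 51.6 and 50.5 FPKM with vehicle and 43.1, 39.7 and 42.2 FPKM with panobinostat, and fell by 0.35 ± 0.08 on the log2 scale (edgeR adjusted p = 0.00119). SMARCA1 did not pass (-0.09 ± 0.08), at 35.4, 41.4 and 39.1 against 37.6, 38.0 and 41.7 FPKM. Its arms overlapped throughout, and SMARCA1 made up 43.6% to 44.5% of the pair's summed FPKM with vehicle and 46.5% to 49.7% with panobinostat. BAZ1A (ACF1), the partner of SMARCA5 in the ACF complex, showed the largest ISWI fall, from 43.9, 48.4 and 47.6 to 28.2, 24.9 and 26.3 FPKM, or 0.93 ± 0.08 on the log2 scale (edgeR adjusted p = 7.68e-08). BAZ1B (the Williams syndrome transcription factor) went from 53.4, 59.4 and 60.0 to 46.1, 42.4 and 42.6 FPKM and fell by 0.51 ± 0.08. BPTF, the large subunit of NURF, fell by 0.56 ± 0.11, with panobinostat library A at 9.98 FPKM, close to the vehicle range of 10.5 to 11.1, and libraries B and C at 7.01 and 6.74 FPKM.

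Among the CHD genes 8 of 9 fell and CHD5 rose, where 31.5% of all genes tested fell and 33.7% rose (42.3% and 27% at 10 CPM or more). The NuRD motors diverged most. CHD3 (ENSG00000170004, chromosome 17, 7884806 to 7912760) stood at 38.0, 39.5 and 41.0 FPKM with vehicle and 7.58, 6.44 and 7.38 FPKM with panobinostat. The arms were far apart. CHD3 fell by 2.58 ± 0.08 on the log2 scale, 5.98-fold (edgeR adjusted p = 5.52e-12), and ranked 54 from the bottom among the 16084 genes tested. CHD5 (ENSG00000116254, chromosome 1, 6101793 to 6180123), a neural NuRD motor known as a tumour suppressor candidate in neuroblastoma, stood at 0.127, 0.130 and 0.196 FPKM with vehicle and 1.04, 0.805 and 0.928 FPKM with panobinostat. Its counts were 18, 23 and 35 against 138, 129 and 167, and it rose by 2.48 ± 0.20 on the log2 scale, 5.58-fold (edgeR adjusted p = 7.46e-08).

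CHD4, the main NuRD motor in most cells, stood at 124, 126 and 128 FPKM with vehicle and 103, 95.3 and 96.8 FPKM with panobinostat, a fall of 0.47 ± 0.07 on the log2 scale. It stayed the most abundant CHD gene in all 6 libraries. Of the summed FPKM of CHD3, CHD4 and CHD5, CHD4 made up 76.1 ± 0.461% with vehicle and 92.4 ± 0.433% with panobinostat, CHD3 23.9 ± 0.442% and 6.69 ± 0.373%, and CHD5 0.0910 ± 0.0216% and 0.866 ± 0.0735% (mean ± SD, n = 3). The sum went from 166 ± 3.20 to 107 ± 4.87 FPKM. In GENCODE release 29, 46.9% of the exon bases of CHD4 are shared on the same strand with the gene model AC006064.6, and that model has 0 rows in the tables analysed here. The gene length behind the FPKM of CHD4 was 7474 bases, against 12713 exon bases in release 29, so its level and share are less certain. The length was also shorter for other genes, among them the motors SMARCA2 (9769 against 18595 bases) and SMARCA4 (11067 against 15778). Further cases were ARID1A (9246 against 15928), ARID1B (16869 against 44677), SMARCB1 (2481 against 16525), SMARCE1 (11022 against 18680) and CHD8 (9781 against 20953). The same limit holds for their levels and shares.

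The 6 remaining CHD genes all passed as falls, each smaller than that of CHD3. CHD2 fell by 0.66 ± 0.08 on the log2 scale, CHD9 by 0.62 ± 0.08, CHD8, a regulator of beta-catenin targets mutated in autism, by 0.60 ± 0.08, CHD7, the gene of CHARGE syndrome, by 0.56 ± 0.09 and CHD6 by 0.37 ± 0.08. CHD1, which binds methylated histone H3 at active genes, had the smallest change of the family (-0.24 ± 0.10, edgeR adjusted p = 0.0383). Its values overlapped, at 16.2, 20.1 and 18.6 FPKM with vehicle and 19.0, 15.6 and 15.7 FPKM with panobinostat, with library A lowest in vehicle and highest in panobinostat. The call for CHD1 was lost with a filter at a mean of 1 CPM (edgeR adjusted p = 0.0699). It was also lost with library size alone, upper quartile scaling or limma on FPKM (0.255 to 0.391), and when vehicle B (0.172), vehicle C (0.0931), panobinostat B (0.163) or panobinostat C (0.131) was left out.

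**Figure D4:**
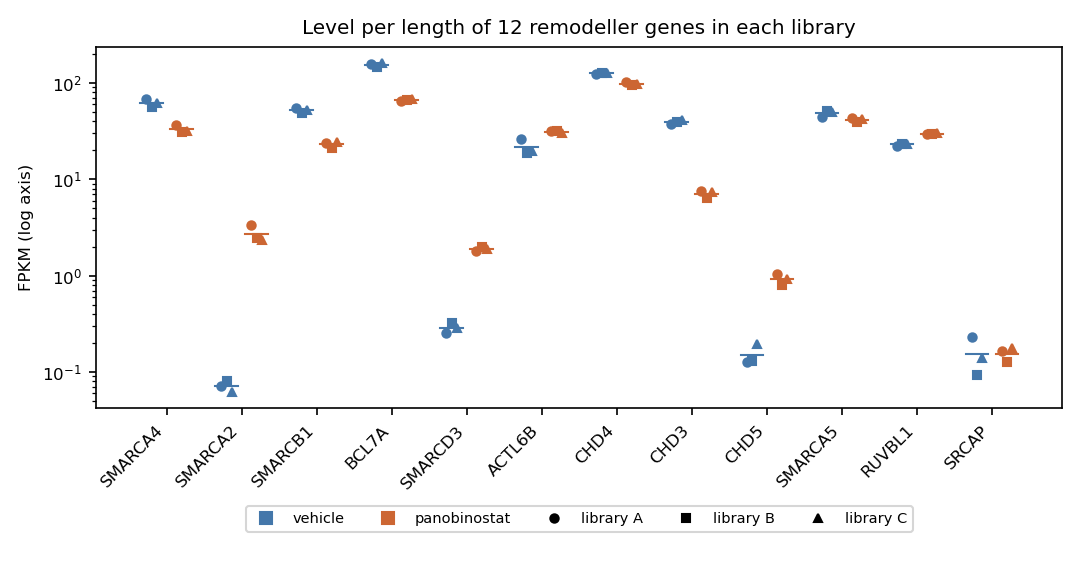
FPKM (y axis, log scale) of 12 remodeller genes in each library, with vehicle in blue, panobinostat in orange, symbols for library letters and lines at the means of 3 libraries. SMARCA2, SMARCD3 and CHD5 lie at 0.323 FPKM or less in vehicle and stay below SMARCA4 and CHD4 in panobinostat, and SRCAP lies at 0.230 FPKM or less in both arms.

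Of the 5 genes of the INO80 group 1 fell, 1 rose and 3 did not pass, where 31.5% of all genes tested fell and 33.7% rose. At 10 CPM or more those shares were 42.3% and 27%. The median log2 fold change of the 5 genes was -0.07. It became 0.04 with library size alone and 0.06 with upper quartile scaling. INO80, the motor of the complex of that name, stood at 11.4, 11.6 and 12.4 FPKM with vehicle and 9.95, 9.31 and 9.02 FPKM with panobinostat, and fell by 0.44 ± 0.07 on the log2 scale (edgeR adjusted p = 0.000113). RUVBL1 and RUVBL2 form the AAA+ ATPase ring found in the INO80, SRCAP and TIP60 complexes. RUVBL1 stood at 22.3, 23.4 and 23.4 FPKM with vehicle and 29.8, 29.5 and 30.0 FPKM with panobinostat, with no overlap, and rose by 0.26 ± 0.07 (edgeR adjusted p = 0.00374). RUVBL2 did not pass (-0.12 ± 0.08), at 54.4, 58.4 and 59.3 against 51.3, 59.0 and 60.4 FPKM. EP400, the motor of the TIP60 acetyltransferase complex, did not pass (0.05 ± 0.11), at 2.28, 1.80 and 2.17 against 2.77, 2.07 and 2.15 FPKM.

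SRCAP, the motor that deposits the histone variant H2A.Z, was listed at 0.0940 to 0.230 FPKM with vehicle and 0.126 to 0.177 FPKM with panobinostat, on 23 to 45 and 28 to 44 counts. Its change (-0.07 ± 0.30) did not pass, and its SE was the largest of the 46 genes. In GENCODE release 29 the gene model AC106886.5 shares 74.1% of the exon bases of SRCAP on the same strand, and that model's own row held 0 to 7 counts per library. Reads were counted per gene, so the level of SRCAP is uncertain. HELLS stood at 13.3, 17.9 and 17.4 FPKM with vehicle and 14.3, 12.6 and 11.7 FPKM with panobinostat, and fell by 0.45 ± 0.11 on the log2 scale (edgeR adjusted p = 0.00196). Its arms overlapped through the A libraries, and the fall did not pass with limma on FPKM (adjusted p = 0.0653 to 0.0896).

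Ratios of paralogous or alternative subunits within a library do not depend on how libraries are scaled, apart from the 0.01 FPKM added to each value, and 14 such pairs were compared. The arms did not overlap for 11 of the 14 pairs, 4 with a higher and 7 with a lower log2 ratio in panobinostat. The share over other gene pairs was not computed. Among single genes tested, 35.5% were higher and 33.4% lower in CPM without overlap. The pairs were chosen with earlier results of these data known. With 3 libraries against 3, the smallest two-sided exact permutation p is 0.1, which these 11 pairs reached (0.127 after Benjamini-Hochberg adjustment over the 14 pairs), so the design cannot pass 0.05 for a single ratio. The log2 ratio of SMARCA2 to SMARCA4 went from -9.57 ± 0.26 to -3.61 ± 0.16 (mean ± SD, n = 3), a difference of 5.96 ± 0.17 (SE). The ratio of SMARCD3 to SMARCD1 differed by 3.07 ± 0.16 and that of CHD5 to CHD4 by 2.91 ± 0.19. The ratio of CHD3 to CHD4 differed by -2.12 ± 0.05, from -1.67 ± 0.04 to -3.79 ± 0.09. Among the neuronal forms the ratio of DPF1 to PHF10 differed by -0.74 ± 0.13 and that of SS18L1 to SS18 by -0.39 ± 0.05. The ratio of ACTL6B to ACTL6A had the opposite sign, 0.53 ± 0.25, and its arms overlapped, with vehicle library A at the panobinostat level (exact permutation p = 0.2). The ratios of SMARCC2 to SMARCC1 and of BRD9 to PBRM1 overlapped between arms as well.

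**Figure D5:**
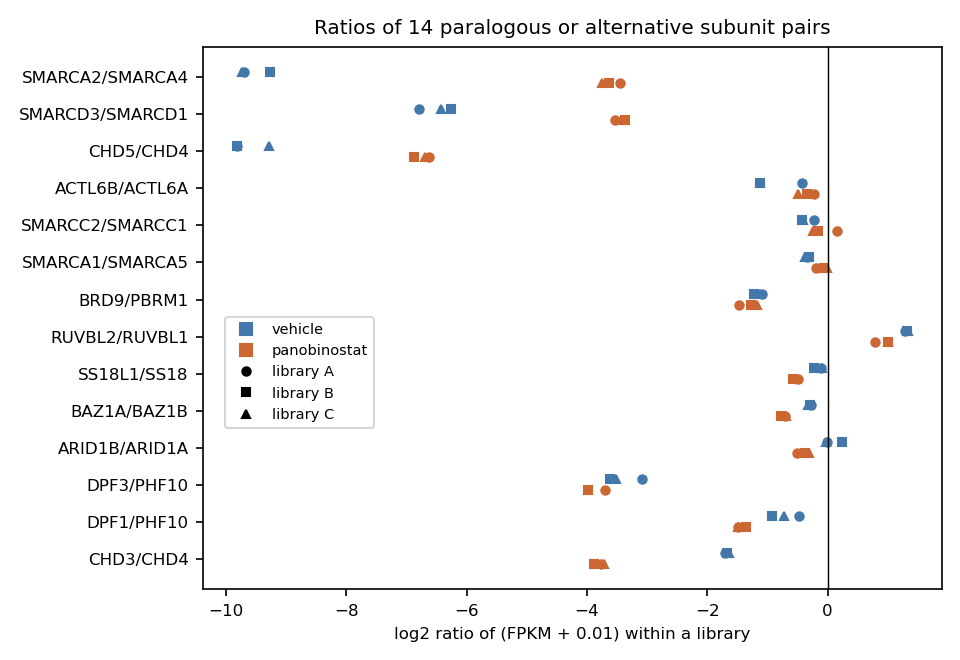
Log2 ratio of (FPKM + 0.01) of 14 subunit pairs (x axis) in each library, vehicle in blue and panobinostat in orange, with symbols for library letters. The arms are far apart for SMARCA2/SMARCA4, SMARCD3/SMARCD1, CHD5/CHD4 and CHD3/CHD4, and they overlap for ACTL6B/ACTL6A, SMARCC2/SMARCC1 and BRD9/PBRM1.

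A further 51 genes, listed as partners of the same complexes and not among the 46, mostly fell as well. This list too was drawn up with earlier results of these data known. Of the 51, 37 fell, 3 rose and 11 did not pass, with a median log2 fold change of -0.42. Over all genes tested 31.5% fell and 33.7% rose, and at 10 CPM or more 42.3% and 27%. With 13 further SNF2 relatives the list held 64 genes, of which 43 fell and 7 rose; 46 fell and 7 rose without both A libraries. With library size alone 37 of the 64 fell and 11 rose, and with upper quartile scaling 35 fell and 12 rose. Among 12 partners in the CHD and NuRD group 10 fell: CDK2AP1, a small NuRD subunit, by 1.46 ± 0.10 on the log2 scale, CHD1L (ALC1), a remodeller recruited by poly(ADP-ribose), by 1.01 ± 0.08, ADNP, a partner of CHD4, by 0.93 ± 0.09, and MBD3, the methyl-binding-domain protein of NuRD, by 0.90 ± 0.10. HDAC1, named because it was the only NuRD partner that rose, rose by 0.40 ± 0.07, and HDAC2 did not pass (-0.09 ± 0.07). Of 8 ISWI partners 5 fell and 0 rose, led by CHRAC1, a histone-fold subunit of CHRAC, by 1.18 ± 0.13. Its fellow ISWI partners BAZ2B, POLE3 and RSF1 fell by 0.79 ± 0.08, 0.56 ± 0.07 and 0.50 ± 0.10. Of 5 SWI/SNF partners 3 fell: ACTB, beta-actin, by 0.80 ± 0.09, BCL11B by 0.64 ± 0.08 and BCL11A by 0.49 ± 0.11. Of 26 INO80, SRCAP and TIP60 partners 19 fell and 2 rose. MORF4L1 (MRG15), a chromodomain subunit of TIP60, fell by 1.37 ± 0.08, TFPT of INO80 by 1.07 ± 0.16 and EPC2 of TIP60 by 1.06 ± 0.09, while INO80B rose by 0.99 ± 0.20, from 1.31 ± 0.198 to 2.82 ± 0.346 FPKM.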

How the data were processed

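Deposited counts per gene are the authors' featureCounts output (version 1.5.0-p3, strand option 2, largest overlap, Ensembl release 84 of GRCh38, per the file headers); the submitters' processing notes name version 1.5.1, Novoalign 2.8 and hg38. Of 9 alignment files in the header, 6 were analysed here. The authors' deposited FPKM were checked at 100 counts or more: 64991 of 64991 came within 1% of the count over a derived length and the column total. Symbols and coordinates came from GENCODE release 29 (22459 of 22718 identifiers), not the release used for counting.

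The main test was edgeR 4.0.16 under R 4.3.3 (filterByExpr, minimum count 10 and total 15; TMM; quasi-likelihood; Benjamini-Hochberg), tested on simulated counts. Alternatives were DESeq2 1.42.0, other scalings and filters, the library letter as a replicate block, a threshold of 0.01, limma 3.58.1 on log2(FPKM + 1) and log2(FPKM + 0.1), and each library left out; leaving out both A libraries was chosen after seeing the data. FPKM is scaled by column total, which sets the median gene 0.11 higher (log2, panobinostat minus vehicle) than TMM. Any member could be named; in each partner set the rule named up to 4 called genes, ranked by absolute log2 change, that averaged at least 1 CPM. Members, lists and rules were chosen with earlier results of these data known. Count floors cover counting error only.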

Additional observations from a re-analysis of the deposited data

How the results depend on the processing

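Of the 46 remodeller genes, 33 kept their direction and their side of the threshold under each of the 18 alternatives that tested them; the 2 limma fits with a filter at 1 FPKM left out CHD5, one of these 33, and SRCAP. Over the 18, 5 or 6 rose and 28 to 36 fell. With the library letter as a replicate block 33 fell and 6 rose, and CHD1 lost its call (edgeR adjusted p = 0.0548). Same-lettered libraries deviated together at r = 0.0815 (A), -0.0213 (B) and 0.104 (C), so letters were not treated as pairs; 2 of 3 letters correlated best with their own. Partner genes that rose numbered 11 with library size alone and 12 with upper quartile scaling, against 7; both scalings also moved the median gene up. With log2(FPKM + 0.1) the log2 ratio differences were 4.92 for SMARCA2 to SMARCA4, 2.75 for SMARCD3 to SMARCD1 and 2.39 for CHD5 to CHD4, since the larger added value damps low levels.

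Only genes that did not pass reversed sign. The log2 changes became 0.0086 (ACTL6A), 0.054 (PHF10), 0.018 (SMARCA1) and 0.037 (SRCAP) with library size alone, and 0.035 (ACTL6A), 0.080 (PHF10), 0.044 (SMARCA1), 0.065 (SRCAP) and 0.016 (RUVBL2) with upper quartile scaling. With limma on FPKM they were 0.0109 and 0.0112 (ACTL6A), 0.0549 and 0.0586 (PHF10), 0.0179 and 0.0184 (SMARCA1) and, without a filter, 0.0019 (SRCAP). Without both A libraries they were 0.26 (SRCAP) and -0.026 (EP400). Leaving out 1 library gave -0.34 to 0.28 for SRCAP and -0.083 to 0.13 for EP400; the cause was not tested. The 23 to 45 counts of SRCAP and the 10 to 14 vehicle counts of SMARCA2 limit their precision.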

Other observations

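Outside the named complexes, 13 further SNF2 relatives and HELLS partners went both ways: 6 fell, 4 rose and 3 did not pass (edgeR, adjusted p of 0.05 or less). Thus 46.2% fell and 30.8% rose, where 31.5% of all genes tested fell and 33.7% rose. All 13 averaged more than 10 CPM, and among genes at 10 CPM or more the shares were close, 42.3% and 27%. CDCA7, which recruits HELLS to chromatin, stood at 28.4 ± 0.863 FPKM with vehicle and 11.6 ± 0.584 FPKM with panobinostat (mean ± SD, n = 3), and fell by 1.40 ± 0.07 on the log2 scale. Its relative CDCA7L went the other way, from 7.12 ± 0.649 to 15.3 ± 0.762 FPKM, a rise of 0.99 ± 0.09. HLTF, a fork-remodelling translocase and ubiquitin ligase, rose by 0.73 ± 0.08, from 41.8 ± 3.28 to 74.9 ± 1.47 FPKM. ATRX, which deposits histone H3.3 with DAXX, fell by 0.67 ± 0.12.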
